A study of Mus musculus with 6 samples.

Results

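The small leucine-rich proteoglycans (SLRPs) were followed in RNA-seq of cultured smooth muscle cells from the mouse oviduct. The members were the 9 genes Dcn, Lum, Bgn, Fmod, Ogn, Prelp, Aspn, Podn and Omd, found by gene symbol among the 54232 genes of the deposited count table. All 9 passed the filter on low counts, which left 15376 genes for the test. There were 3 libraries labelled WT and 3 from mice with conditional deletion of Pbrm1 (Pbrm1 cKO), whose product, polybromo 1, belongs to a chromatin remodeling complex of the SWI/SNF type. The comparison asked which transcripts differ in these cells when Pbrm1 is deleted. Both groups were of Day 2 of pregnancy after mating with a stud male, at 8 to 12 weeks of age. In the study's naming, Pbrm1 cKO stands for floxed Pbrm1 alleles and the PR IRES-cre allele, which expresses Cre from the progesterone receptor locus and so acts in cells that have expressed the receptor. The labels give neither a strain nor the number of animals per library, and they call the controls WT while a legend of the study names floxed mice. Oviducts were digested with enzymes, filtered and plated for some hours, so the cells were a short-term culture and not a sorted population.

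SLRPs are secreted proteins of the extracellular matrix with a core of leucine-rich repeats. Most carry chondroitin or dermatan sulfate chains (Dcn and Bgn) or keratan sulfate chains (Lum, Fmod, Ogn and Omd), and many bind collagen fibrils and set their spacing and diameter. Decorin and biglycan also bind TGF-beta and cell surface receptors, and in smooth muscle tissues such as the oviduct the family is part of the connective tissue around and between the muscle bundles.

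Libraries held 15390818 to 18947947 counts. Levels are given as CPM (the share of a library's counts scaled to a common total and corrected by the trimmed mean of M values, TMM), at which 3 counts, taken as the floor, are worth 0.159 to 0.193 CPM; this floor covers counting error only. Pbrm1 itself was at 170, 183 and 172 CPM in WT libraries and at 43.5, 50.7 and 42.7 CPM in Pbrm1 cKO libraries, 26.04% of the WT mean (log2 fold change -1.94 ± 0.064 SE, adjusted p = 9.13e-11 by edgeR's quasi-likelihood test with Benjamini-Hochberg adjustment over all genes tested). All 10 smooth muscle markers were detected, with a summed level of 3498 to 3570 CPM in WT and 4272 to 4769 CPM in Pbrm1 cKO libraries, and transgelin (Tagln) was the most abundant of them.

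Of the 9 SLRP genes, 5 rose in Pbrm1 cKO cells (Dcn, Lum, Bgn, Podn and Prelp), 2 fell (Ogn and Aspn) and 2 did not pass the test (Fmod and Omd) at an adjusted p under 0.05. Among all genes tested, 43.7% were called, 21.9% higher and 21.8% lower. The Pbrm1 cKO libraries lay above all WT libraries for 5 members and below them for 3, and 1 member overlapped, where 53.5% of all tested genes had groups that did not overlap (26.6% with Pbrm1 cKO above and 26.9% below). The median log2 fold change of the members was 0.26, beside 0.0016 over all tested genes. Marker genes moved between the groups as well. Markers of fibroblasts, the cells best known for Dcn and Lum, had 9 of 13 tested genes higher and 3 lower, and their summed level was 2746 to 2873 CPM in WT and 3709 to 3954 CPM in Pbrm1 cKO libraries. All 10 tested leukocyte markers rose, from a summed 742 to 789 CPM to 1099.5 to 1201 CPM. No marker was at 0 in all libraries. The part of these cells in the differences of the SLRP genes was not tested, and in bulk samples fewer cells of a type and less RNA per cell cannot be told apart. In the plot of CPM by library, the 7 called members separate between groups, by a narrow gap for Bgn, and the spread within a group was widest for Prelp and Aspn in Pbrm1 cKO and Podn in WT libraries.

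**Figure D1:**
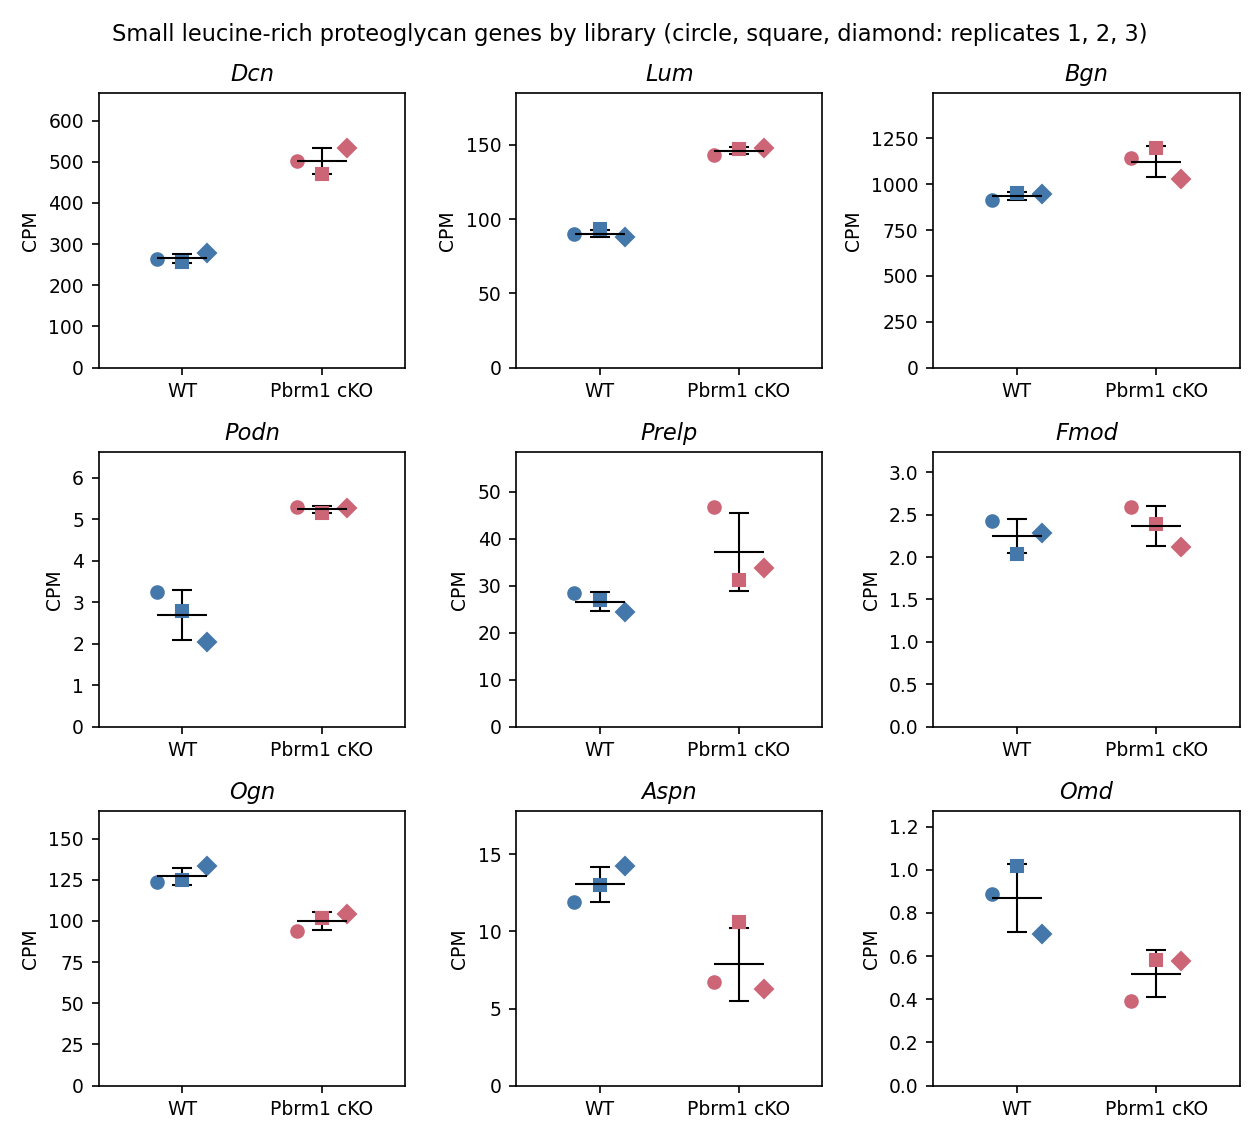
Each panel shows 1 gene, with CPM on a linear axis from 0, for 3 WT (blue) and 3 Pbrm1 cKO (red) libraries; the horizontal line is the group mean and the bar 1 SD. Dcn moved from 257 to 278 CPM in WT to 471 to 533 CPM in Pbrm1 cKO libraries, Ogn from 124 to 133 CPM down to 93.8 to 104 CPM, and Fmod overlapped between groups.

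Decorin (Dcn, ENSMUSG00000019929.16, chr10:97479609-97518143 on the plus strand of GRCm38) carries a single chondroitin or dermatan sulfate chain and regulates lateral growth of collagen fibrils. It was at 264, 257 and 278 CPM in WT libraries and at 502, 471 and 533 CPM in Pbrm1 cKO libraries. Every Pbrm1 cKO library was above every WT library, and the gap between groups was far wider than the spread within either. The mean rose 1.89-fold, from 266 ± 10.8 to 502 ± 30.8 CPM (SD, n = 3 each), a log2 fold change of 0.92 with a 95% interval of 0.80 to 1.03 (edgeR, adjusted p = 2.25e-08). This absolute log2 fold change was larger than that of 92.4% of tested genes.

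Lumican (Lum, ENSMUSG00000036446.5, chr10:97565128-97572703, plus strand), a keratan sulfate proteoglycan that limits fibril diameter, lies 47.0 kb beyond Dcn on the same strand. Its level was 89.7, 93.1 and 88.2 CPM in WT libraries and 143, 147 and 148 CPM in Pbrm1 cKO libraries. The groups did not overlap and both had a narrow spread. Lum rose 1.62-fold, with a log2 fold change of 0.69 (95% interval 0.60 to 0.79, edgeR adjusted p = 7.28e-08).

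Biglycan (Bgn, ENSMUSG00000031375.17, chrX:73483602-73495933, plus strand), the close relative of decorin with chondroitin or dermatan sulfate chains, had the highest level per exon length of the members in every library. It was at 913, 954 and 944 CPM in WT libraries and at 1143, 1196 and 1029.9 CPM in Pbrm1 cKO libraries. The lowest Pbrm1 cKO library lay only a little above the highest WT library. Bgn rose 1.20-fold (log2 fold change 0.26, 95% interval 0.15 to 0.38, edgeR adjusted p = 0.00143), a change smaller than those of Dcn and Lum, with intervals that did not overlap theirs.

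Podocan (Podn, ENSMUSG00000028600.15, chr4:108014791-108096445, minus strand), a member of a separate SLRP class, was rare. It had 55, 52 and 35 counts in WT libraries, or 3.25, 2.78 and 2.05 CPM, and 94, 97 and 82 counts in Pbrm1 cKO libraries, or 5.29, 5.15 and 5.28 CPM. The Pbrm1 cKO libraries were nearly level with each other, and all 3 exceeded the WT libraries. Podn rose 1.94-fold, the largest absolute log2 fold change among the called members at 0.96 (95% interval 0.59 to 1.32, edgeR adjusted p = 0.000458). Its span in the table overlaps Scp2 on the same strand, but no exon base of Podn is shared with an exon of another gene.

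Prelp (ENSMUSG00000041577.5, chr1:133910304-133921414, minus strand), which encodes an SLRP with a basic N-terminus that binds heparan sulfate, was at 28.5, 26.9 and 24.5 CPM in WT libraries. It was at 46.7, 31.2 and 33.8 CPM in Pbrm1 cKO libraries. All 3 were above WT, but replicate 1 stood well apart from the other Pbrm1 cKO libraries. The log2 fold change was 0.48 (95% interval 0.22 to 0.75, edgeR adjusted p = 0.0059), and without Pbrm1 cKO replicate 1 it was 0.29 (adjusted p = 0.0194). An antisense gene, Gm15851, covers 9.68% of the exon bases of Prelp and had 2 counts over all libraries in a count made by strand.

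Osteoglycin (Ogn, ENSMUSG00000021390.6, chr13:49608046-49624501, plus strand), also called mimecan, had the highest level per exon length of the falling members. It was at 124, 125 and 133 CPM in WT libraries and at 93.8, 102 and 104 CPM in Pbrm1 cKO libraries. No Pbrm1 cKO library reached the lowest WT value. Ogn fell to 78.5% of the WT mean, with a log2 fold change of -0.35 (95% interval -0.46 to -0.24, edgeR adjusted p = 0.000119).

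Asporin (Aspn, ENSMUSG00000021388.14, chr13:49544443-49567565, plus strand), which is related to decorin and biglycan but has no glycosaminoglycan chain, was at 11.9, 13.05 and 14.2 CPM in WT libraries. In Pbrm1 cKO libraries it was at 6.75, 10.6 and 6.24 CPM. All 3 lay below WT, with replicate 2 closest to it. Aspn fell to 60.2% of the WT mean (log2 fold change -0.72, 95% interval -1.06 to -0.37, edgeR adjusted p = 0.00254). Without Pbrm1 cKO replicate 2 the log2 fold change was -1.001 (adjusted p = 3.7e-06).

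Osteomodulin (Omd, ENSMUSG00000048368.9, chr13:49582462-49592822, plus strand), a keratan sulfate SLRP best known from bone, lies between Aspn and Ogn. It had 15, 19 and 12 counts in WT libraries and 7, 11 and 9 counts in Pbrm1 cKO libraries, or 0.89, 1.02 and 0.70 CPM against 0.39, 0.58 and 0.58 CPM. The Pbrm1 cKO libraries were the 3 lowest, but the log2 fold change of -0.74 had a 95% interval of -1.46 to -0.025 and an adjusted p of 0.088 by edgeR, so a difference was not detectable at this depth after adjustment. Fibromodulin (Fmod, ENSMUSG00000041559.7, chr1:134037254-134048277, plus strand), which shares a collagen site with lumican, was at 2.42, 2.03 and 2.28 CPM in WT libraries and at 2.59, 2.39 and 2.12 CPM in Pbrm1 cKO libraries. The groups overlapped, and the 95% interval of its log2 fold change, -0.32 to 0.49, holds changes in both directions (edgeR adjusted p = 0.754).

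**Figure D2:**
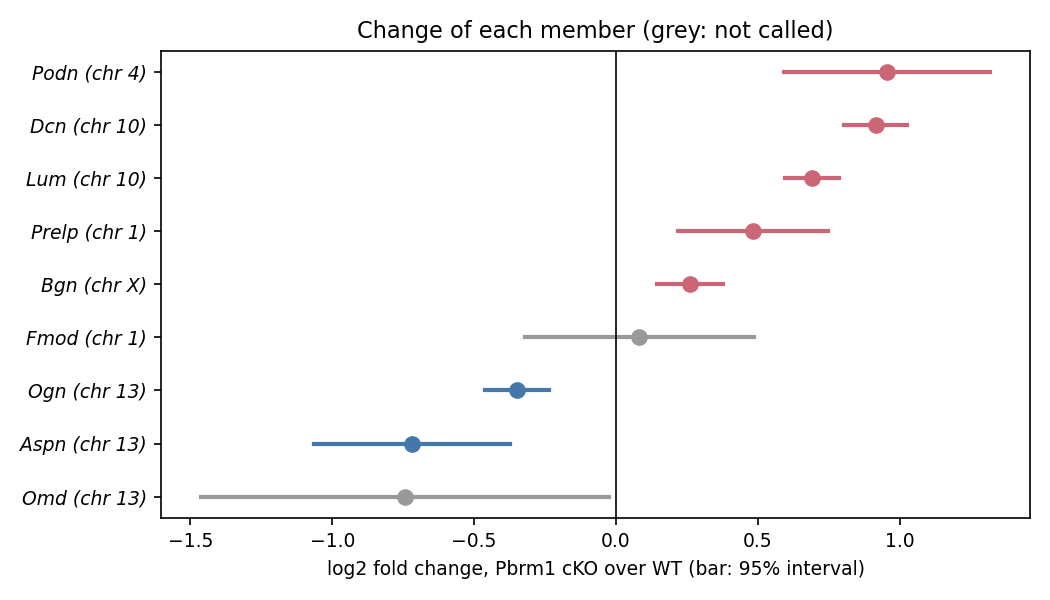
Points are the log2 fold changes of the 9 SLRP genes, Pbrm1 cKO over WT, with bars for the 95% interval, and red, blue and grey for higher, lower and not called. Podn and Dcn lie highest at 0.96 and 0.92, and the 3 genes of chromosome 13 (Ogn, Aspn and Omd) are the 3 lowest, Omd without a call.

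Levels of different genes were compared per length, as CPM per kilobase of the exon length in the deposited table. In WT cells the order was Bgn (154 ± 3.52 CPM per kb, SD, n = 3), Ogn (49.6 ± 2.02), Dcn (45.6 ± 1.85), Lum (36.9 ± 1.03), Prelp (7.37 ± 0.56), Aspn (5.55 ± 0.49), Fmod (0.68 ± 0.060), Podn (0.63 ± 0.14) and Omd (0.39 ± 0.070). Neighbours in that order were apart in their ranges over libraries except Fmod and Podn, whose values overlapped. In Pbrm1 cKO cells Dcn (86.0 ± 5.28 CPM per kb) and Lum (59.6 ± 0.97) stood above Ogn (38.9 ± 2.11), with no overlap between these genes, and Podn (1.23 ± 0.018) stood above Fmod (0.72 ± 0.070). Bgn stayed first at 184 ± 13.9 CPM per kb and Omd last at 0.23 ± 0.048. The place of Ogn depended on the length used. By longest transcript, Dcn stood above Ogn in WT cells too (56.7 ± 2.30 and 49.6 ± 2.02 CPM per kb), as it did by coding length (251 ± 10.2 and 142 ± 5.79), and Podn stood above Fmod (0.74 ± 0.17 and 0.72 ± 0.064) with values that overlapped. Over all 6 libraries Lum stood above Ogn (48.3 and 44.3 CPM per kb), but not by coding length. The order in Pbrm1 cKO cells was the same by all 3 lengths.

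The summed level of the 9 genes was 294.5 to 305 CPM per kb in WT libraries and 375 to 392 CPM per kb in Pbrm1 cKO libraries, a ratio of means of 1.28. Within this sum, the share of Dcn was 15.4%, 14.6% and 15.6% in WT and 22.3%, 20.6% and 24.3% in Pbrm1 cKO libraries. The share of Ogn was 16.3%, 16.2% and 17.0% in WT and 9.46%, 10.1% and 10.8% in Pbrm1 cKO libraries. By this exon length Ogn took the larger share of the pair in every WT library and Dcn in every Pbrm1 cKO library, whereas by coding or transcript length Dcn was the larger in all 6 libraries. Lum went from 12.3% ± 0.41 to 15.5% ± 0.50 and Bgn from 51.1% ± 0.57 to 47.8% ± 2.58 (SD, n = 3).

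**Figure D3:**
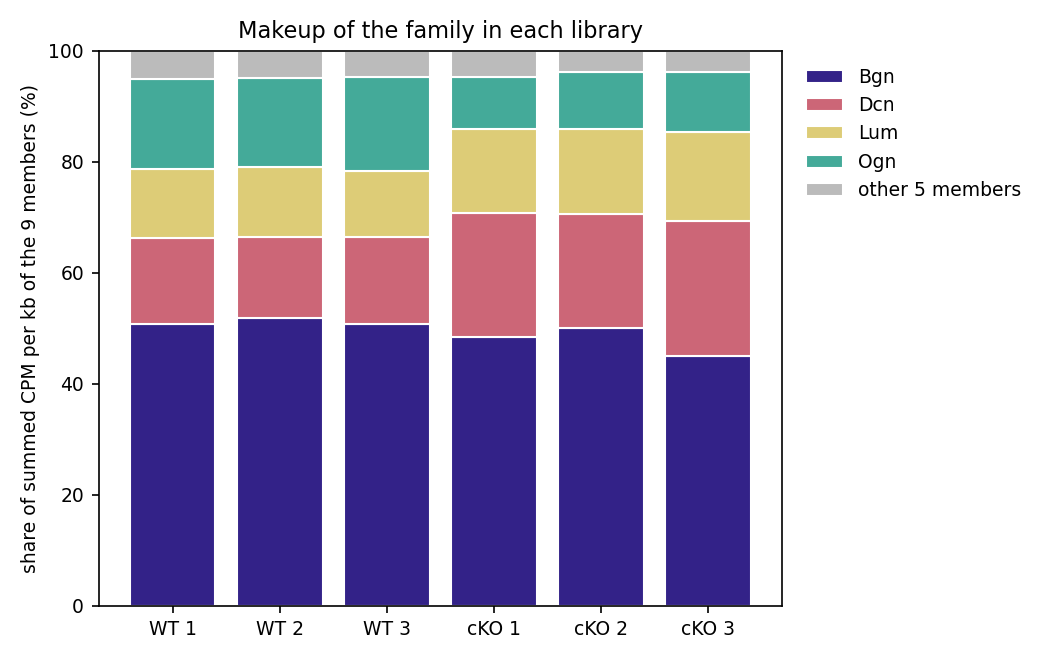
Bars show, for each of the 6 libraries, the share in percent that each gene takes of the summed CPM per kb of the 9 members. The Dcn segment is 14.6% to 15.6% in WT and 20.6% to 24.3% in Pbrm1 cKO libraries, while the Ogn segment shrinks from at least 16.2% to at most 10.8%.

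Ratios of levels per length within a library do not depend on how libraries are scaled, and the length used sets their value but not their relative change between groups. The ratio of Dcn to Ogn was 0.92 ± 0.019 in WT and 2.21 ± 0.16 in Pbrm1 cKO libraries (SD, n = 3), and that of Dcn to Bgn was 0.297 ± 0.014 and 0.470 ± 0.065. The ratio of Dcn to its cluster neighbour Lum moved least of these, from 1.24 ± 0.083 to 1.44 ± 0.087. For each of these 3 ratios the groups did not overlap, with a two-sided exact permutation p of 0.1, the smallest that 3 against 3 libraries allow, and 0.133 after adjustment over the 4 ratios computed. The fourth, Prelp to Fmod, went from 10.9 to 14.3 (exact permutation p = 0.2, adjusted p = 0.2). The ratios were not among the tests planned. Dcn was higher and Ogn lower in each Pbrm1 cKO library than in any WT library. The separation of the ratio of Dcn to Ogn was therefore fixed by those values and adds nothing to their calls.

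Many SLRP genes lie in clusters. On chromosome 10, Dcn and Lum rose, and the next genes, Kera and Epyc, which encode the SLRPs keratocan and epiphycan, were too low to be tested (at most 0.073 CPM in either group). No other protein-coding gene within 250 kb of Dcn or Lum was tested. On chromosome 13, Aspn, Omd and Ogn follow each other on the plus strand with gaps of 14.9 and 15.2 kb. Omd was not called (edgeR adjusted p = 0.088). Like 26.9% of all tested genes, all 3 were lower in each Pbrm1 cKO library than in any WT library. They lie inside the span of Cenpp, a centromere protein gene on the opposite strand, with WT libraries at 3.87 ± 0.43 CPM and Pbrm1 cKO libraries at 3.41 ± 0.62 CPM (edgeR adjusted p = 0.411). Cenpp shares 7 exon bases with Aspn and none with Omd or Ogn, and counting was by strand. Ecm2, the SLRP-like gene on the other side of Aspn, was at 2.94 and 2.20 CPM (adjusted p = 0.121). On chromosome 1, Prelp and Fmod lie 116 kb apart on opposite strands, with Optc, the gene of opticin, next to Prelp at 0.50 and 0.65 CPM (adjusted p = 0.426).

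Within 250 kb of any member there were 53 other protein-coding genes, of which 30 were tested, 2 rose and 7 fell. That is 30.0% called, beside 43.7% of all tested genes. Scp2, which overlaps Podn, was among those that rose, a call that was lost under DESeq2 (adjusted p = 0.0682) and without some single libraries (edgeR adjusted p up to 0.0797), and those that fell were Dusp9, Chil1, Adora1, Ippk, Nol8, Lrp8 and Echdc2. Closest to a falling member was Nol8, a nucleolar protein gene 28.6 kb beyond Ogn, which fell from 80.8 to 60.9 CPM (log2 fold change -0.41). Ippk, on the other side of the cluster, fell from 39.9 to 33.5 CPM (log2 fold change -0.25), a call that was also lost without some single libraries (edgeR adjusted p up to 0.0872). These were the only 2 called of 8 tested neighbours of the chromosome 13 members within 250 kb.

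**Figure D4:**
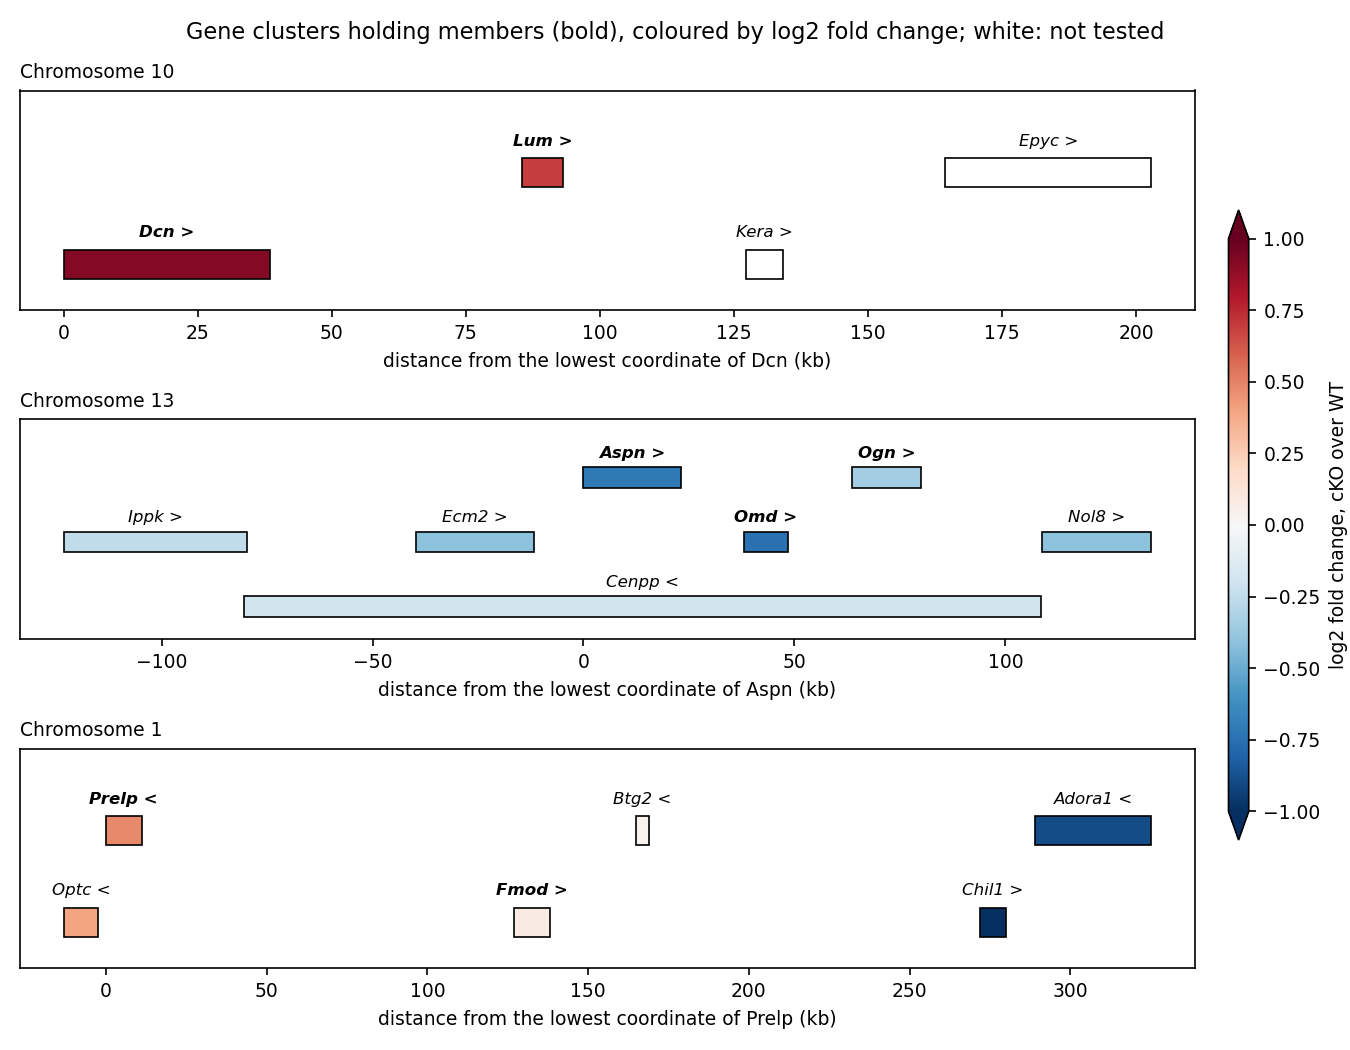
Boxes show genes around the members on chromosomes 10, 13 and 1 by distance in kb from 1 member, coloured by log2 fold change (red higher, blue lower in Pbrm1 cKO, white not tested), with an arrowhead for strand. The boxes of Dcn and Lum are red at 0.92 and 0.69, those of Aspn, Omd and Ogn blue at -0.72, -0.74 and -0.35, and of the genes coloured Omd, Fmod, Cenpp, Ecm2, Optc and Btg2 were not called.

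Promoter sequence was looked up for what the members share beyond their name. RefSeq windows on GRCm38.p6, from 250 bases before to 50 after a gene's start, were found for 7 of the 9 members, 8 windows in all because Podn has 2. Dcn and Lum had no entry. Both Podn windows lie inside the span given above for Podn, so they mark RefSeq starts within it and not its outer end. The windows of the chromosome 13 genes had a GC content of 31.0% (Aspn), 37.7% (Omd) and 42.3% (Ogn). Those of Fmod, Prelp, Bgn and Podn had 51.0%, 55.3%, 63.7% and, for its windows, 77.0% and 63.0%, where the median over all windows was 52.7%.

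The motifs of the TATA box (TATAAA), the GC box (GGGCGG), the AP-1 site (TGANTCA), the E-box (CACGTG) and the CArG box were searched on both strands. Matches at any position of a window were taken, so a match is a run of bases, and its use as a promoter element was not tested. The 250 bases before the start are printed, 5′ to 3′ on the gene's strand, for the 4 members with a match, namely Aspn (chr13:49544193-49544442, plus strand) and Ogn (chr13:49607765-49608014, plus strand), which fell, and Bgn (chrX:73483351-73483600, plus strand) and Podn (chr4:108031955-108032204, minus strand, the first of its windows), which rose. Capitals mark TATAAA or its reverse complement TTTATA in Aspn and Ogn, and GGGCGG or its reverse complement CCGCCC in Bgn and Podn.
Aspn: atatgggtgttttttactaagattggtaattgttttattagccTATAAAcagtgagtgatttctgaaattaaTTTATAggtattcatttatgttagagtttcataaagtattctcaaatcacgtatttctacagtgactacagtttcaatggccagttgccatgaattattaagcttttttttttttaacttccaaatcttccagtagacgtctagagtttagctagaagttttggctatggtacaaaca
Ogn: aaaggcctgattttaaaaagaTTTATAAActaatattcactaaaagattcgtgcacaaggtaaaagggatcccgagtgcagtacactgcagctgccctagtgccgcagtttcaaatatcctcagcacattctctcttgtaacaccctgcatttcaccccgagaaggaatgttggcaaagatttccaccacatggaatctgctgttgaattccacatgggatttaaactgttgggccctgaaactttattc
Bgn: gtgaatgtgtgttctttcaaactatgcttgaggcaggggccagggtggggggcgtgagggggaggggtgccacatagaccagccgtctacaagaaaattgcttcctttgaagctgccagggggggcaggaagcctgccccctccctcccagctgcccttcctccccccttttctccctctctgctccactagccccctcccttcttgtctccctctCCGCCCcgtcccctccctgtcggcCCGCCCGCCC
Podn: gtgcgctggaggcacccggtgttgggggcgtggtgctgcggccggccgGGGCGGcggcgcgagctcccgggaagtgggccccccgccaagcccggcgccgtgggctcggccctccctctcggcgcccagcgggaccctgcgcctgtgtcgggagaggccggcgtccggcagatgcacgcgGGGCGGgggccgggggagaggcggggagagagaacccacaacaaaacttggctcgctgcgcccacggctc
Aspn held TATAAA on the plus strand and again on the minus strand, and in Ogn a plus and a minus match overlapped. All of them lay between positions -229 and -173, counted back from the start. Bgn held GGGCGG 3 times on the minus strand, the last 2 overlapping, and Podn held it 2 times on the plus strand of its first window. TATAAA was in 13.6% and GGGCGG in 35.7% of all 32851 windows of this length, and each was in 2 of the 8 member windows. None of the member windows held TGANTCA (7.81% of all windows), CACGTG (7.15%) or the CArG box (1.63%), the motif bound by serum response factor.

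The other genes of the SLRP family were mostly rare. Of 9, 4 were tested, 1 rose and 1 fell, or 50% of those tested. The counts of this and the later lists stand beside 43.7% called among all tested genes, 21.9% higher and 21.8% lower. Tsku, the gene of the secreted signaling modulator tsukushi, rose from 43.0 ± 1.34 to 50.4 ± 3.09 CPM (log2 fold change 0.23, edgeR adjusted p = 0.00728). Podnl1, the closest relative of Podn, fell from 2.32 ± 0.22 to 0.84 ± 0.27 CPM (log2 fold change -1.48, adjusted p = 0.000487), opposite in sign to Podn.

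Enzymes that build the chondroitin and dermatan sulfate chains carried by Dcn and Bgn moved in both directions. Of 23 tested, 8 rose and 4 fell (52.2% called), with a median log2 fold change of -0.023. Dse, an epimerase that turns chondroitin into dermatan sulfate, rose from 133 ± 3.19 to 200.02 ± 8.08 CPM (log2 fold change 0.59, edgeR adjusted p = 3.68e-07). Dsel, the other epimerase gene of the list, fell from 55.0 ± 1.45 to 47.7 ± 0.92 CPM (log2 fold change -0.21, edgeR adjusted p = 0.00629). Chst14, a dermatan sulfotransferase gene, also fell, from 25.5 to 21.5 CPM (log2 fold change -0.24, edgeR adjusted p = 0.0125). Csgalnact1, which starts chondroitin chains, rose by a log2 fold change of 0.40, the xylose phosphatase gene Pxylp1 by 0.39, and the sulfotransferase genes Chst7 and Chst15 by 0.54 and 0.33. Chst3, a chondroitin 6-O-sulfotransferase gene, fell from 2.10 to 1.15 CPM (log2 fold change -0.87). Chst11, the chondroitin 4-O-sulfotransferase gene and the most abundant of the list, fell from 720.5 ± 24.9 to 604 ± 45.8 CPM (log2 fold change -0.26). The calls of Chst3, Chst7 and Chst15 were lost when some single libraries were left out (edgeR adjusted p up to 0.0706, 0.127 and 0.0842). The call of Chst7 was also lost under DESeq2 with all libraries (adjusted p = 0.0885).

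For the keratan sulfate chains carried by Lum and Fmod, 4 of 7 genes were tested, none rose and 2 fell. That is 50% called, beside 43.7% of all tested genes. The sulfotransferase gene Chst2 fell from 36.6 ± 2.58 to 17.5 ± 2.14 CPM (log2 fold change -1.06, edgeR adjusted p = 6.52e-07). B3gnt7, which extends the chain, fell from 7.69 to 4.99 CPM (log2 fold change -0.62). B4galt1, the most abundant, was at 290.5 and 301 CPM with an edgeR adjusted p of 0.45, and it passed the threshold under 1 alternative. Lum itself, as given above, rose.

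Among the fibril collagens that SLRPs bind and the enzymes that cross-link them, 6 of 20 rose and 4 fell (50% called). Their median log2 fold change was 0.050. Col3a1 rose from 1417 ± 6.13 to 2574 ± 332 CPM and Col1a2 from 1664 ± 70.5 to 2401 ± 23.2 CPM (log2 fold changes 0.86 and 0.53, edgeR adjusted p = 7.69e-07 and 7.77e-07). Col14a1, a collagen of the fibril surface, rose from 8.32 to 23.2 CPM and Col24a1 from 2.43 to 3.74 CPM. Col11a1, a minor fibril collagen, fell from 140 ± 1.72 to 45.1 ± 1.73 CPM (log2 fold change -1.63). Lysyl oxidase (Lox) fell from 1135 to 797 CPM (log2 fold change -0.51). Col1a1, the most abundant of the list, was at 2612 ± 311 and 2765 ± 287 CPM (adjusted p = 0.453), and its log2 fold change of 0.082 became -0.013 without WT replicate 3.

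Receptors and growth factors bound by SLRPs had 13 of 17 tested genes called (76.5%), 8 higher and 5 lower, and their median log2 fold change was 0.24. The receptors of soluble biglycan Tlr4 and P2rx7 rose from 44.6 ± 4.33 to 79.3 ± 3.09 CPM and from 23.0 ± 1.55 to 40.9 ± 1.46 CPM (log2 fold changes 0.83 and 0.83, edgeR adjusted p = 4.86e-07 and 5.91e-07). Egfr, a decorin receptor, rose from 386 ± 2.57 to 579.6 ± 5.78 CPM (log2 fold change 0.59), while Kdr, the VEGF receptor that decorin also binds, fell from 182 to 99.4 CPM (log2 fold change -0.87). The TGF-beta ligands differed in direction, since Tgfb3 rose from 129.7 to 177 CPM (log2 fold change 0.45) and Tgfb2 from 34.9 to 41.2 CPM (0.24), while Tgfb1 fell from 36.6 to 27.5 CPM (-0.40, edgeR adjusted p = 0.00874). Bmp4 rose from 17.7 to 21.5 CPM (log2 fold change 0.28, edgeR adjusted p = 0.0451), a call near the threshold that was not checked under the alternatives. The matricellular genes Ccn4 and Ccn2 fell, Ccn4 from 116 to 56.9 CPM (log2 fold change -1.02) and the abundant Ccn2 from 1731 to 1345 CPM (log2 fold change -0.36).

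Of 11 tested genes for proteases and procollagen processing, 7 rose and 3 fell (90.9% called), with a median log2 fold change of 0.38. Mmp3, a stromelysin that cleaves decorin, rose from 20.8 ± 2.46 to 76.0 ± 15.6 CPM (log2 fold change 1.86, edgeR adjusted p = 1.55e-07). Adamts4, Mmp13, Adamts5 and Mmp2 rose by log2 fold changes of 0.94, 0.87, 0.61 and 0.46. Tll1, a tolloid protease of the family that removes the propeptide of biglycan, fell from 36.9 ± 1.14 to 8.81 ± 1.79 CPM (log2 fold change -2.05, adjusted p = 8.67e-09), whereas Bmp1, the more abundant protease of that family, rose from 147 ± 6.71 to 191 ± 6.97 CPM (log2 fold change 0.38, adjusted p = 3.22e-05). The membrane protease gene Mmp14 fell from 507 to 369 CPM (log2 fold change -0.46). Of 17 tested other proteoglycan core proteins 3 rose and 4 fell (41.2% called). Higher were the TGF-beta coreceptor Tgfbr3 (log2 fold change 0.72), the most abundant syndecan Sdc4 (1086 to 1414 CPM, 0.38) and Agrn (0.32). Cspg4 (-0.70), Gpc1 (-0.49) and Sdc1 (-0.25) were among those lower.

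**Figure D5:**
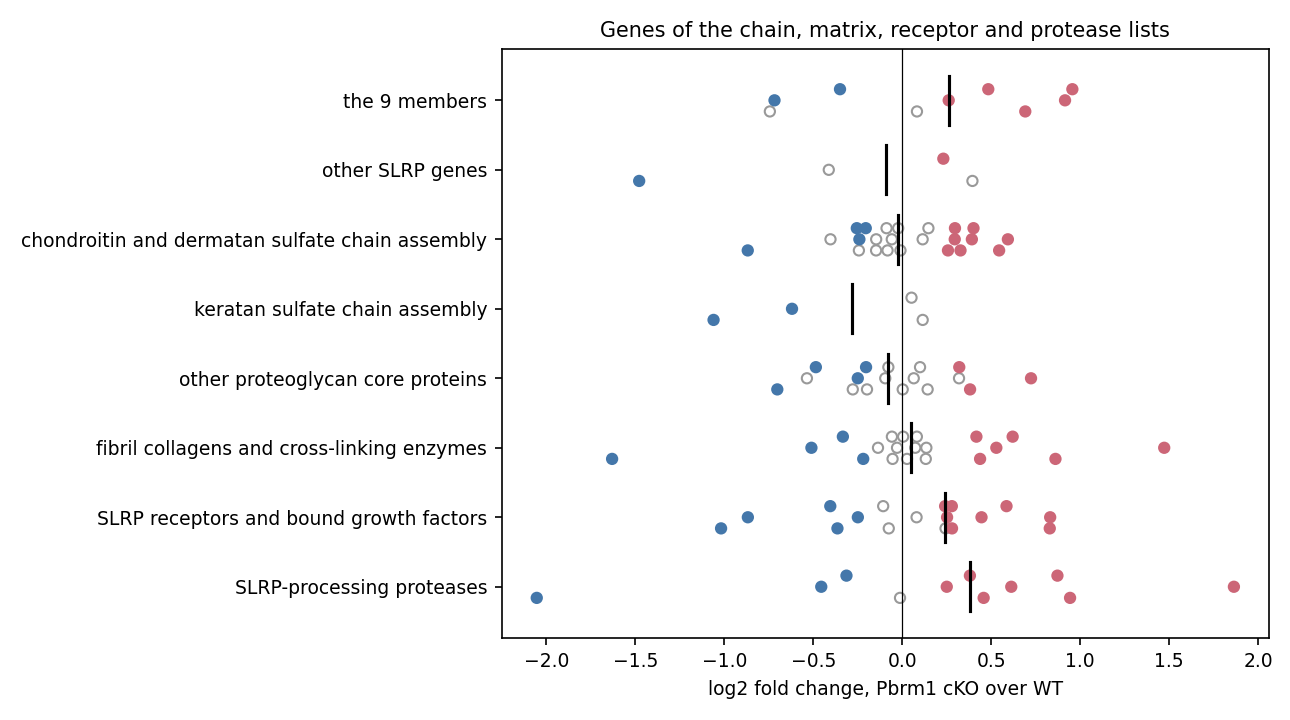
Each point is a tested gene of a list, placed by log2 fold change, Pbrm1 cKO over WT, with red for higher, blue for lower and open grey for not called, and a black line at the median. The protease list runs from -2.05 (Tll1) to 1.86 (Mmp3) around a median of 0.38, and the chondroitin and dermatan sulfate list is centred at -0.023.

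Among the fibroblast markers, Col15a1 rose from 64.8 to 170 CPM, Cd34 from 30.7 to 65.7 CPM and Scara5 from 0.40 to 1.53 CPM. The most abundant, Fbln2, went from 1371 to 1496 CPM (edgeR adjusted p = 0.0412). The call of Fbln2 was lost when some single libraries were left out (edgeR adjusted p up to 0.171) and under upper quartile scaling (edgeR adjusted p = 0.0606). The 3 fibroblast markers that fell were Dpt (53.5 to 34.0 CPM, log2 fold change -0.65), Dpp4 (6.40 to 4.49 CPM, -0.51) and Thy1 (12.5 to 9.998 CPM, -0.31). The leukocyte markers that rose included Cd74 (43.1 to 112 CPM), Ptprc (15.04 to 30.6 CPM), Itgam (10.3 to 19.5 CPM) and the most abundant, Lyz2 (453 to 621 CPM). Smooth muscle markers had 5 of 10 higher, 1 lower and 4 not called. Those picked by the naming rule were all among the higher, with Des at 239 and 554 CPM, Myh11 at 88.2 and 147 CPM, Lmod1 at 40.7 and 70.8 CPM and Tagln at 1598 and 2000.3 CPM.

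Epithelial markers had 7 of 10 higher (summed 1012 to 1106 CPM in WT, 1188 to 1324 CPM in Pbrm1 cKO), led by Epcam with 30.9 and 65.3 CPM, and this count was 4 without WT replicate 1. Pericyte markers had 4 of 5 higher and 1 lower, among them Kcnj8 (4.06 to 11.4 CPM) and Abcc9 (6.16 to 16.1 CPM), but the sum, most of it from Cspg4, was 105 to 123 CPM in WT and 90.2 to 111 CPM in Pbrm1 cKO libraries. Endothelial markers had 2 higher (Vwf and Egfl7) and 1 lower (Kdr) of 10. Their sum was 360.2 to 379.7 CPM in WT and 304 to 316 CPM in Pbrm1 cKO libraries. The fall of Kdr in CPM, given above, was larger than that of the sum, so the sum does not describe the other endothelial markers. Mesothelial markers had none higher and 4 of 7 lower (221 to 231 and 169 to 173 CPM). For these cell types too, the part in the SLRP differences was not tested.

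The genes whose pattern over the 6 libraries was most like that of a member were found among 10603 protein-coding genes with a mean of at least 5 CPM, by the root mean square difference of centred log2 CPM. Closest to Bgn were Slc38a1 (0.022), Nid1 (0.023), which encodes the basement membrane protein nidogen, and Scaper (0.026). Closest to Podn were Eml6 (0.017), Siglec1 (0.060), a sialic acid receptor of macrophages, and Fyb (0.089), an adaptor of blood cells. With 6 points in 2 groups, these values mostly describe genes with a like difference between the groups.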

How the data were processed

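Primary oviductal smooth muscle cells of Day 2 of pregnancy were profiled by strand-specific RNA-seq, 3 libraries per group. The authors deposited 1 table of raw read counts per gene, made per the file headers with featureCounts 1.6.4 in reverse-stranded mode on GENCODE M18 exons; the submitters' processing notes name cutadapt, HISAT2 and GRCm38.p5, and the study gives versions of the trimmer and aligner for its RNA-seq, in methods that describe uterine stromal libraries. Default counting drops multi-mapping reads and those shared by genes of 1 strand. The exon lengths in the deposited table gave CPM per kb. Symbols were found for 99.7% of gene identifiers.

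Counts were tested with edgeR 4.0.16 (R 4.3.3): genes low by filterByExpr were left out, libraries were scaled by TMM, and a quasi-likelihood F-test compared Pbrm1 cKO with WT, two-sided, with Benjamini-Hochberg adjustment over 15376 genes and a threshold of 0.05. The script was tested on simulated data. Libraries held 15390818 to 18947947 counts. Replicate libraries differed by more than sampling noise (chi-square per gene 1.31 to 1.60, over 2156 to 2304 genes of low count per pair). Pairs with Pbrm1 cKO replicate 2 had the highest values, 1.49 and 1.60. On the first principal component of log2 CPM over tested genes, that library was at 23.4. The other Pbrm1 cKO libraries were at 30.7 and 32.2 and WT libraries at -29.2 to -28.4, so replicate 2 lay nearest to WT. A legend of the study calls the 3 replicates biological, but no source used here ties a library to an animal or pool. The p-values therefore weigh a difference between groups against the spread between these libraries only. Replicate numbers were not taken to pair libraries. DESeq2 1.42.0, limma-voom 3.58.1, other scalings, filters and thresholds, and leaving out each library were the alternatives.

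The members and gene lists were chosen with earlier results of these data known. Named were all members, Pbrm1, in each pathway list up to 6 called genes of largest absolute change and the most abundant by CPM, in each marker list up to 3 and the most abundant, called neighbours within 250 kb, and the 3 genes most like Bgn and Podn (log2 of CPM plus 0.5). Kera, Epyc, Ecm2, Optc, Cenpp, Btg2 and Gm15851 were named for their position. Dsel, Chst12, Chst14, Bmp1, Tgfb1, Tgfb2, Bmp4, Dpt, Dpp4 and Thy1 were named to show both directions, after values were seen. Protein sequences were not used here, and 1 called neighbour is not reported here by name.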

Additional observations from a re-analysis of the deposited data

How the results depend on the processing

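No call of the 9 SLRP genes or of Pbrm1 changed under DESeq2, limma-voom, other scalings, no filter, at least 10 counts in every library, the replicate block, an adjusted p under 0.01 or leaving out any library, except that Omd failed the stricter filter. Leaving out libraries gave log2 fold changes of 0.87 to 0.96 for Dcn, 0.67 to 0.71 for Lum, 0.22 to 0.32 for Bgn, 0.80 to 1.10 for Podn, 0.29 to 0.61 for Prelp, -0.38 to -0.31 for Ogn and -1.001 to -0.58 for Aspn.

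With a log2 fold change beyond 1 required as well, no member was called (0 higher, 0 lower), since Dcn (0.92), Lum (0.69), Bgn (0.26), Prelp (0.48), Podn (0.96), Ogn (-0.35) and Aspn (-0.72) are all smaller. That threshold left 998 of all genes, 1 other SLRP gene, 0 chondroitin and dermatan sulfate genes, 1 keratan sulfate gene, 0 other proteoglycans, 2 collagen genes, 1 receptor or growth factor, 2 proteases, 2 neighbours, and 1 smooth muscle, 3 fibroblast, 2 leukocyte, 1 endothelial, 1 epithelial, 1 mesothelial and 2 pericyte markers. Epithelial markers called numbered 4 at an adjusted p under 0.01 and 4 to 7 when a library was left out. Neighbours called were 4 of 12 within 100 kb and 18 of 56 within 500 kb. By coding length Lum ranked 4 and Ogn 3 over all libraries, the reverse of their ranks by exon length. In WT libraries Dcn ranked 2 and Ogn 3 by coding and by transcript length, and Podn 7 and Fmod 8 by transcript length, each pair the reverse of its order by exon length.

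Replicate numbers did not pair the libraries (correlations of deviations -0.048, 0.0828 and 0.187). The replicate block gave 6908 calls over all genes, 6617 of them shared with the 6723 of the fit without it, and changed no call of a member (Prelp 0.47, Aspn -0.73). Beyond the members and Pbrm1, the 72 genes picked by the naming rule from the lists and called neighbours were checked. Under the other tools, scalings and filters, the block and left-out libraries, 983 of their 1007 values kept direction and side of the threshold. A call was lost in 22, 19 of them when a library was left out, and gained in 1, for B4galt1. Col1a1 turned to -0.013 without WT replicate 3 (highest value without a library 0.15). Genes named for position, to show both directions or as most like Bgn and Podn were not in this check. Depth limits Omd, Fmod and Podn most.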
